A study of Mus musculus with 4 samples.

Results

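The let-7 family with its relative miR-98 was followed by TaqMan real-time PCR in whole mouse embryos. Its members were found by assay name, and all 9 that the rule lists were read: mmu-let-7a, mmu-let-7b, mmu-let-7c, mmu-let-7d, mmu-let-7e, mmu-let-7f, mmu-let-7g, mmu-let-7i and mmu-miR-98. They are 9 of the 375 microRNA assays read in every sample. The samples were C57BL/6 whole embryos at E18.5, 2 of them wild-type and 2 lacking estrogen receptor alpha (ER-alpha KO), the nuclear receptor encoded by Esr1. The labels do not say which Esr1 allele was used, what sex or litter the embryos came from, or whether samples were single embryos or pools, so the p-values here reflect the spread of these samples only, which may be partly technical. Because the assays read small RNAs, the Esr1 transcript was not analysed here. The reading of a well is its threshold cycle (Ct), the cycle at which fluorescence crosses a threshold. The more RNA there is, the lower the Ct, and a step of 1 cycle stands for about 1 log2 unit.

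The let-7 microRNAs are short RNAs of about the same sequence that lower the output of messenger RNAs carrying a match to their seed, the bases that pair first with a target. They are scarce in early embryos, where the RNA-binding protein Lin28 blocks the processing of their precursors, and accumulate as tissues differentiate. Well-known targets are growth and cell-cycle genes such as Hmga2, Myc and Ras genes. In bulk RNA of a whole embryo, a lower value may mean fewer cells with a microRNA or less of it per cell, which cannot be told apart.

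The mature sequences are shown because they define the family and because the targets of its assays differ by few bases. All 9 names matched a mature 5′ arm in RefSeq (GRCm38.p6), each of 22 bases. They are printed 5′ to 3′ with the seed, bases 2 to 8, in capitals.
mmu-let-7a: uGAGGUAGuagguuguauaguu
mmu-let-7b: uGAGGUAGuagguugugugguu
mmu-let-7c: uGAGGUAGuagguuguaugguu
mmu-let-7d: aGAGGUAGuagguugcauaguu
mmu-let-7e: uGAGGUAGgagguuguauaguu
mmu-let-7f: uGAGGUAGuagauuguauaguu
mmu-let-7g: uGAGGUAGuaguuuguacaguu
mmu-let-7i: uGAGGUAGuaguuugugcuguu
mmu-miR-98: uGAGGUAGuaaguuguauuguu

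All 9 members carry the seed GAGGUAG, which 11 of the 1679 mature mouse microRNAs of the RefSeq table hold, the remaining 2 being mmu-let-7k and mmu-miR-1961, for which no assay was analysed here. Counted from 1 at the 5′ end and with let-7a as the reference, let-7c differs by A19G, let-7e by U9G and let-7f by G12A. For let-7b the substitutions are A17G and A19G, for let-7d U1A and U16C, for let-7g G12U and U18C, and for miR-98 G11A and A19U. The most distant from let-7a is let-7i, with 4 substitutions (G12U, A17G, U18C and A19U). How far each assay also reads its near-identical relatives was not tested, and no passenger strand of the family was analysed here.

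All 9 members amplified at a Ct of 35 or lower in all 4 samples and so entered the comparison of 229 microRNAs detected in every sample. Of the microRNA assays, 254 to 290 per sample met that limit. The 7 tissue microRNAs chosen to mark a whole embryo (muscle, endothelium, liver, brain, epithelium, mesenchyme and red blood cells) were detected in all 4 samples, and 0 of 5 assays of the early-embryo miR-290 to miR-295 cluster were, although 3 of these 5 were detected in 3 samples. Wild-type replicate 1 stood apart: except for U6, its readings all hold the same offset of 0.273 cycles, and after taking it off 90.0% of them lay within 0.1 cycle of a whole cycle, against 21.0% to 26.5% in the other samples. All 9 family members were among those near-whole readings in that sample, compared with 1, 3 and 2 of 9 in wild-type replicate 2 and ER-alpha KO replicates 1 and 2. Family values of wild-type replicate 1 are therefore given with a resolution near 1 cycle, and the main comparisons are also given without that sample.

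The family spanned a wide range of Ct with a nearly fixed order. From the earliest to the latest mean Ct the order was let-7i, let-7g, let-7e, let-7c, let-7d, let-7a, let-7b, let-7f and miR-98, and it was the same without wild-type replicate 1. The family spread over 7.04 and 6.50 cycles in wild-type replicates 1 and 2, against 6.28 and 5.52 cycles in the ER-alpha KO replicates 1 and 2. These are readings of different assays of unknown efficiency, so a gap in Ct between members is not a ratio of molecules.

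The earliest member was let-7i, encoded by a gene of its own on chromosome 10, with a Ct of 26.2 and 24.6 in wild-type replicates 1 and 2, against 24.8 and 25.0 in ER-alpha KO replicates 1 and 2. In the same order of samples, let-7g, whose gene lies within Wdr82 on chromosome 9, had 27.2, 24.7, 25.0 and 24.9. For let-7e, encoded next to miR-125a on chromosome 17, the readings were 28.3, 25.2, 25.9 and 25.8. In all of these the late reading belongs to wild-type replicate 1, and the other 3 samples lay within 0.7 cycles of each other. Neighbours let-7i and let-7g did not differ beyond their spread, with a gap of 0.30 ± 0.48 cycles (SD, n = 4) and opposite sign in ER-alpha KO replicate 2. Without wild-type replicate 1, where the gap was 1.01, it was 0.06 ± 0.14 cycles (SD, n = 3). The step from let-7g to let-7e was 0.84 ± 0.23 cycles and had the same sign in 4 of 4 samples.

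In the middle stood let-7c, which is made from 2 genes, with 29.2 and 26.9 in wild-type against 27.7 and 27.6 in ER-alpha KO samples. Its neighbour let-7d, from a chromosome 13 cluster with let-7a and let-7f genes, had 29.2 and 27.2 in wild-type against 27.9 and 27.7 in ER-alpha KO samples. This pair was close, 0.17 ± 0.16 cycles apart (SD, n = 4). The sign turned in wild-type replicate 1, but the gap there, -0.021, is below the resolution of that sample. Without it the gap was 0.23 ± 0.12 cycles (SD, n = 3), from 0.12 to 0.36. The steps on either side of the pair were larger and had the same sign in 4 of 4 samples: 1.53 ± 0.37 cycles from let-7e to let-7c and 1.58 ± 0.40 from let-7d to let-7a.

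Among the late members, let-7a, the reference sequence of the family, read 30.2 and 28.9 in wild-type against 29.8 and 29.3 in ER-alpha KO samples. For let-7b, a member known from neural stem cells, the Ct was 31.2 and 29.1 in wild-type against 30.0 and 29.6 in ER-alpha KO samples. For let-7f it was 31.3 and 30.1 in wild-type against 30.6 and 30.4 in ER-alpha KO samples. Both ER-alpha KO samples lay between the wild-type samples for each of these. The gaps were 0.41 ± 0.39 cycles from let-7a to let-7b and 0.61 ± 0.43 from let-7b to let-7f (SD, n = 4), with the same sign in 4 of 4 samples, although the latter shrank to 0.016 in wild-type replicate 1. Without that sample the gap from let-7a to let-7b was 0.22 ± 0.03 cycles and that from let-7b to let-7f 0.81 ± 0.21 (SD, n = 3), so the former was smaller but then exceeded its spread.

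**Figure D1:**
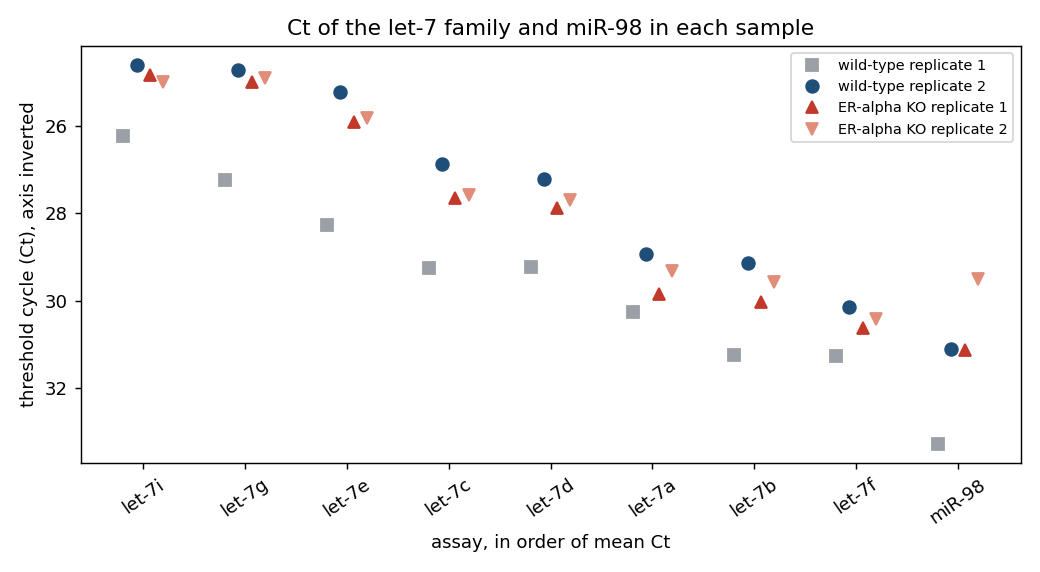
Ct of each member (vertical axis, inverted so that more RNA is higher) in the 4 samples, with assays in order of mean Ct along the horizontal axis and 1 symbol per well. Wild-type replicate 1 read later than the other samples for all 9 members, and miR-98 is the member whose ER-alpha KO replicate 2 point (29.5) stands above the rest.

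The last member was miR-98, a let-7 relative encoded beside a let-7f gene on the X chromosome. Its Ct was 33.3 and 31.1 in wild-type replicates 1 and 2, against 31.1 and 29.5 in ER-alpha KO replicates 1 and 2. The readings of wild-type replicate 2 and ER-alpha KO replicate 1 were thus nearly equal before any scaling, and ER-alpha KO replicate 2 alone was well earlier. In that sample miR-98 ranked 7 of 9, ahead of let-7b and let-7f, and in the other 3 samples it ranked 9. Its gap to let-7f, 0.64 ± 1.22 cycles (SD, n = 4), did not exceed its spread, nor did the 0.18 ± 0.99 cycles (SD, n = 3) without wild-type replicate 1.

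For the comparison of genotypes, each sample had the median Ct over its 229 tested microRNAs taken off, and a level is minus the remainder, in log2 units. The question was whether the family stands at another level in ER-alpha KO than in wild-type embryos. Of the 9 members 0 passed an adjusted p of 0.05 by limma, and 0% of all 229 tested microRNAs did. At an unadjusted p under 0.05 there was 1 member, miR-98, where 4.37% of all tested microRNAs met that limit. The median log2 fold change over the family was 0.15, and over all tested microRNAs it was 0.26. The family median level was -0.01 and 0.14 in wild-type against 0.32 and 0.12 in ER-alpha KO samples, so the groups overlapped.

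The fold changes of the 8 let-7 assays ran from -0.29 (let-7a) to 0.73 (let-7g), each with a standard error of 0.64. A change of at least 2.38-fold was needed for an unadjusted p of 0.05, and the 95% interval of let-7d, the median member, ran from -1.10 to 1.40. Without wild-type replicate 1 the 8 assays ran from -0.11 to 0.41, with a median of 0.04 where all tested microRNAs had 0.30. The count of members above 0 was 7 of 9, against 68.1% of all tested microRNAs, and without wild-type replicate 1 it was 5 of 9, against 76%. Where the 229 assays were chosen again over the other 3 samples, which made them 241, the whole scale moved: the family median was -0.25 and that of all tested microRNAs -0.03. The sign of fold changes this close to 0 thus turned with the centring, which differences between members of the same sample do not depend on.

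In 2 of the 9 members, let-7g and miR-98, both ER-alpha KO samples lay above both wild-type samples, and in 0 of 9 both lay below them. Of all tested microRNAs 33.2% had non-overlapping groups with ER-alpha KO higher and 6.11% with ER-alpha KO lower. Set against wild-type replicate 2 alone, both ER-alpha KO samples were higher for 4 of 9 members (let-7f, let-7g, let-7i and miR-98) and lower for 0 of 9, where 57.2% and 10.5% of all tested microRNAs were. The level of let-7g was 2.00 and 2.64 in wild-type against 3.19 and 2.91 in ER-alpha KO samples, a log2 fold change of 0.73 ± 0.64 (SE; limma adjusted p = 0.939). Its wild-type samples differed from each other by 0.64, nearly as much as the groups, and the fold change was 0.41 without wild-type replicate 1. Scaled to the controls the let-7g groups overlapped. The level of let-7e was 0.96 and 2.14 in wild-type against 2.28 and 2.00 in ER-alpha KO samples. Its fold change of 0.59 rested on wild-type replicate 1, and without that sample it was -0.0007.

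For miR-98 the levels were -4.04 and -3.74 in wild-type against -2.93 and -1.67 in ER-alpha KO samples. The ER-alpha KO samples were both above the wild-type ones, yet lay 1.26 apart, while the wild-type samples lay 0.29 apart. The latter gap is below the resolution of wild-type replicate 1, which is near 1 cycle. The log2 fold change was 1.59 ± 0.64 (SE; limma unadjusted p = 0.013, adjusted p = 0.438), or 3.01-fold, above that of 99.6% of the tested microRNAs, and it did not pass the test. Leaving out wild-type replicate 1 gave 1.44 and leaving out ER-alpha KO replicate 2 gave 0.96, so the latter sample moves the value by over 1.5 times. With a mean Ct of 31.2 in single wells, miR-98 was the latest member, and the precision of single wells was not measured. Whether miR-98 met the unadjusted limit depended on the settings of the limma test. With a variance of its own in place of the shared one, it did not. Nor did it with no normalization, quantile normalization, centring on the average profile or on the family median, or no filter. It did with scaling to the controls, the replicate block, and the trend and robust settings of eBayes. These settings were run on all samples. Without wild-type replicate 1, the log2 fold change of miR-98 was 1.00 with scaling to the controls. It was 1.11 with the microRNAs chosen again over the other 3 samples.

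**Figure D2:**
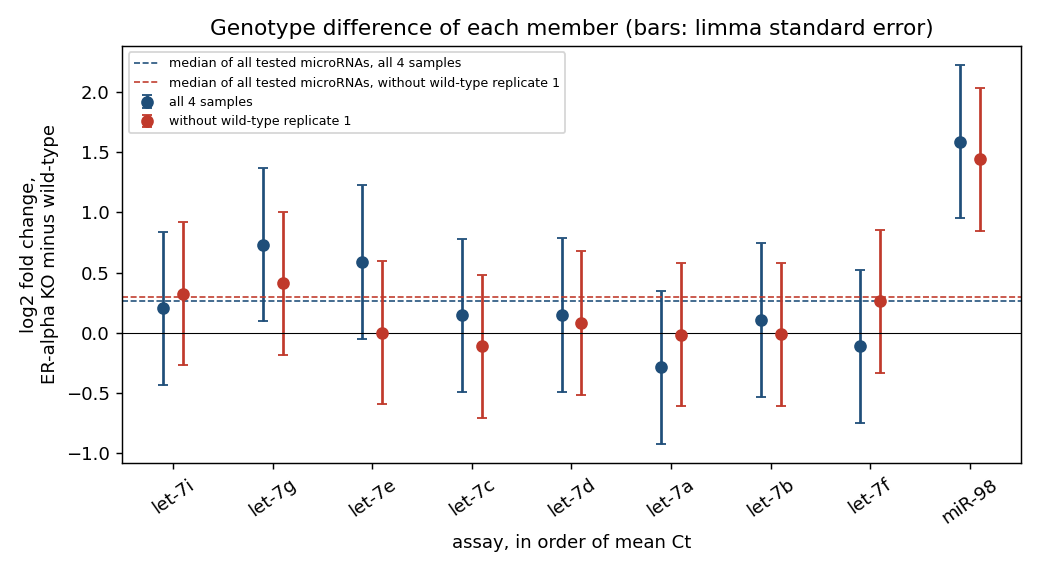
Log2 fold change of ER-alpha KO minus wild-type for each member (points), with limma standard errors (bars), from all 4 samples (blue) and without wild-type replicate 1 (red). Dashed lines are the medians of all 229 tested microRNAs, 0.26 and 0.30. The 8 let-7 assays lie within 1 standard error of these lines, and miR-98 lies above them at 1.59 and 1.44.

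Set against the other members of the same sample, which needs no centring, miR-98 stood at -4.03 and -4.06 log2 units relative to the median of the other 8 in wild-type replicates 1 and 2. It stood at -3.36 and -1.85 in ER-alpha KO replicates 1 and 2. The wild-type samples were close on this measure, although wild-type replicate 1 stood apart on others and has a resolution near 1 cycle. Their SD may thus understate the spread of wild-type samples. The ER-alpha KO samples were spread. The difference of means was 1.44 (-4.05 ± 0.02 in wild-type against -2.60 ± 1.07 in ER-alpha KO, SD, n = 2 each). It was 1.46 without wild-type replicate 1, 0.69 without ER-alpha KO replicate 2 and 2.20 without ER-alpha KO replicate 1, so its size rests on the ER-alpha KO samples used. An exact permutation test over samples (two-sided) had p = 0.333, the smallest value possible with 2 against 2 samples. Of the 8 let-7 assays, let-7g stood at 2.01 and 2.50 relative to the family median in wild-type, against 2.86 and 2.79 in ER-alpha KO samples. On the same scale let-7a stood at -1.0 and -1.70 in wild-type, against -1.97 and -1.62 in ER-alpha KO samples. For let-7a the groups thus overlapped, as they did for the other let-7 assays except let-7g, where they did not. The share of all tested microRNAs without overlap on this scale was not computed. Set against wild-type replicate 2 alone, the ER-alpha KO samples lay on either side of it for let-7a and both above it for let-7g.

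**Figure D3:**
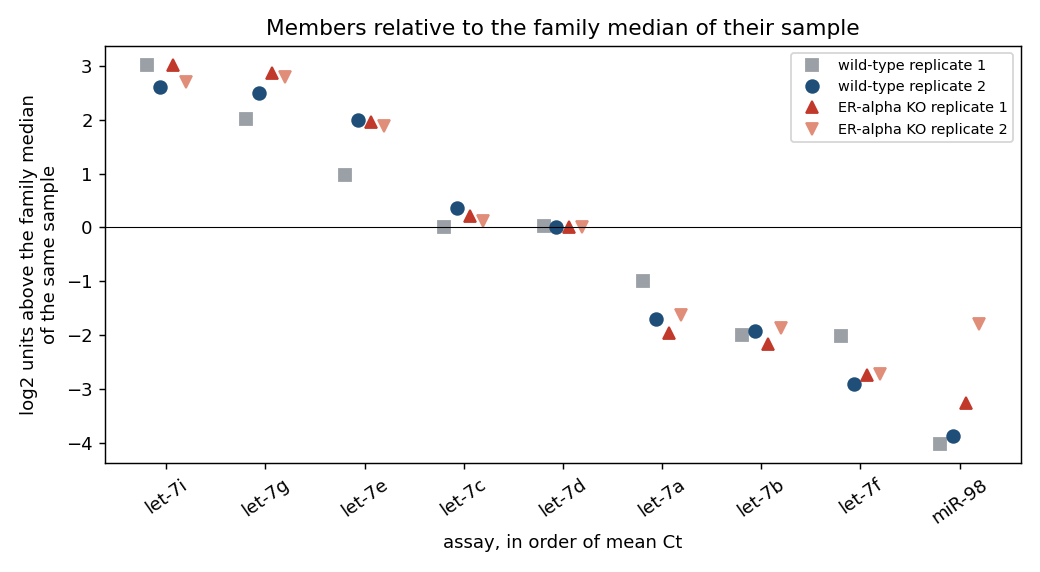
Level of each member above or below the family median of its own sample (log2 units, vertical axis), with 1 symbol per sample and assays in order of mean Ct. For let-7e, wild-type replicate 1 (0.98) stands apart from the other samples (1.88 to 2.00), and for miR-98 the ER-alpha KO samples (-3.26 and -1.79) lie above the wild-type samples (-4.02 and -3.88).

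Between samples, the level differences of the 8 let-7 assays, with miR-98 left out, were less spread out than those of all tested microRNAs. From wild-type replicate 2 to ER-alpha KO replicate 1, their level differences had an SD over assays of 0.26, where all 229 had 0.68. To ER-alpha KO replicate 2 the SDs were 0.17 and 0.48, and between the ER-alpha KO samples 0.22 and 0.62. With miR-98 included, the SDs over all 9 members in these 3 pairs were 0.32, 0.70 and 0.53, so from wild-type replicate 2 to ER-alpha KO replicate 2 the 9 members were more spread out than all tested microRNAs. In the pairs with wild-type replicate 1 the let-7 assays had an SD of 0.59 to 0.68, and the 9 members one of 0.60 to 0.92, against 0.98 to 1.11 over all tested. Assays are not independent replicates, so no test was made. Late assays scatter more in PCR, and 24.9% of the tested microRNAs had a later mean Ct than let-7f, the latest of the 8; the part of this in the difference was not tested. In contrast to the 8, miR-98 differed by 0.81 and 2.07 from wild-type replicate 2 to ER-alpha KO replicates 1 and 2, beyond the 8 let-7 assays, which differed by at most 0.59 and 0.28.

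Near-identical sequences did not give equal readings. The 4 pairs of members that differ by 1 base were set side by side, here without wild-type replicate 1 because of its whole-cycle readings. For let-7c (A19G) the Ct minus that of let-7a was -1.99 ± 0.23 cycles (SD, n = 3). For let-7e (U9G) it was -3.71 ± 0.22 cycles, so this single change at base 9 went with the widest gap of the 4. For let-7f (G12A) it was 1.03 ± 0.23 cycles, a later reading than that of let-7a. From let-7b to let-7c the change is G17A, and the Ct of let-7c minus that of let-7b was -2.21 ± 0.20 cycles. In each pair the sign was the same in 4 of 4 samples, and the gap was several times its SD. Pairs with 2 differing bases ranged from 0.06 cycles (let-7g and let-7i) to 5.51 cycles (let-7f and let-7g), so the number of differing bases did not order the gaps. Whether these gaps come from the embryos or from the assays was not tested.

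The 9 members come from 12 genes in RefSeq (GRCm38.p6), because let-7a, let-7c and let-7f each have 2, and most lie in clusters. An assay of the mature form cannot say which of 2 genes its RNA came from. Mirlet7f-2 (chrX:151912346-151912428) and Mir98 (chrX:151913214-151913321) lie 785 bases apart on the plus strand within the span of Huwe1, a ubiquitin ligase gene. The readings of miR-98 and let-7f did not keep a constant gap: relative to let-7f, miR-98 stood at -2.01 and -0.97 log2 units in wild-type replicates 1 and 2, at -0.51 in ER-alpha KO replicate 1 and at 0.93 in ER-alpha KO replicate 2. The let-7f assay also reads the product of Mirlet7f-1 (chr13:48537829-48537917), 261 bases from Mirlet7a-1 and 1714 bases from Mirlet7d. For that cluster the fold changes were -0.29 for let-7a, -0.11 for let-7f and 0.15 for let-7d, and -0.02, 0.26 and 0.08 without wild-type replicate 1. Mirlet7c-2 (chr15:85706603-85706697) and Mirlet7b (chr15:85707319-85707403), 621 bases apart within the long non-coding RNA gene Lncppara, had 0.14 for let-7c and 0.10 for let-7b. Without wild-type replicate 1 these were -0.11 and -0.01.

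Other let-7 genes were set beside the miR-99/100 and miR-125 families, which were chosen for comparison. Whether they share a transcript was not tested. Of their 7 assays 6 were tested and 0 passed the limma test, and miR-125b-3p was not tested because of a Ct of 38.5 in wild-type replicate 2. On chromosome 17, Mirlet7e (chr17:17830352-17830444) lies 367 bases before Mir125a within the span of Spaca6. Fold changes were 0.59 for let-7e, 0.31 for miR-125a-5p, 0.71 for miR-125a-3p and -0.81 for miR-99b. No position was found for Mir99b, so its place beside these genes is not shown here. Without wild-type replicate 1 the values were -0.0007, -0.41, 0.99 and -0.34, so miR-125a-5p changed sign. These products did not go the same way in either set, which with all samples rests on miR-99b. On chromosome 16, Mirlet7c-1 (chr16:77599657-77599750) lies 656 bases after Mir99a. The microRNA miR-99a had a fold change of -0.44 beside 0.14 for let-7c, and 0.16 beside -0.11 without wild-type replicate 1. On chromosome 9, Mirlet7a-2 (chr9:41536716-41536811) and Mir100 lie 5211 bases apart within Mir100hg, where miR-100 had -0.26 beside -0.29 for let-7a, and 0.19 beside -0.02 without wild-type replicate 1. For miR-125b-5p, also made from that host gene, the values were -0.34 and, without wild-type replicate 1, -0.34.

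**Figure D4:**
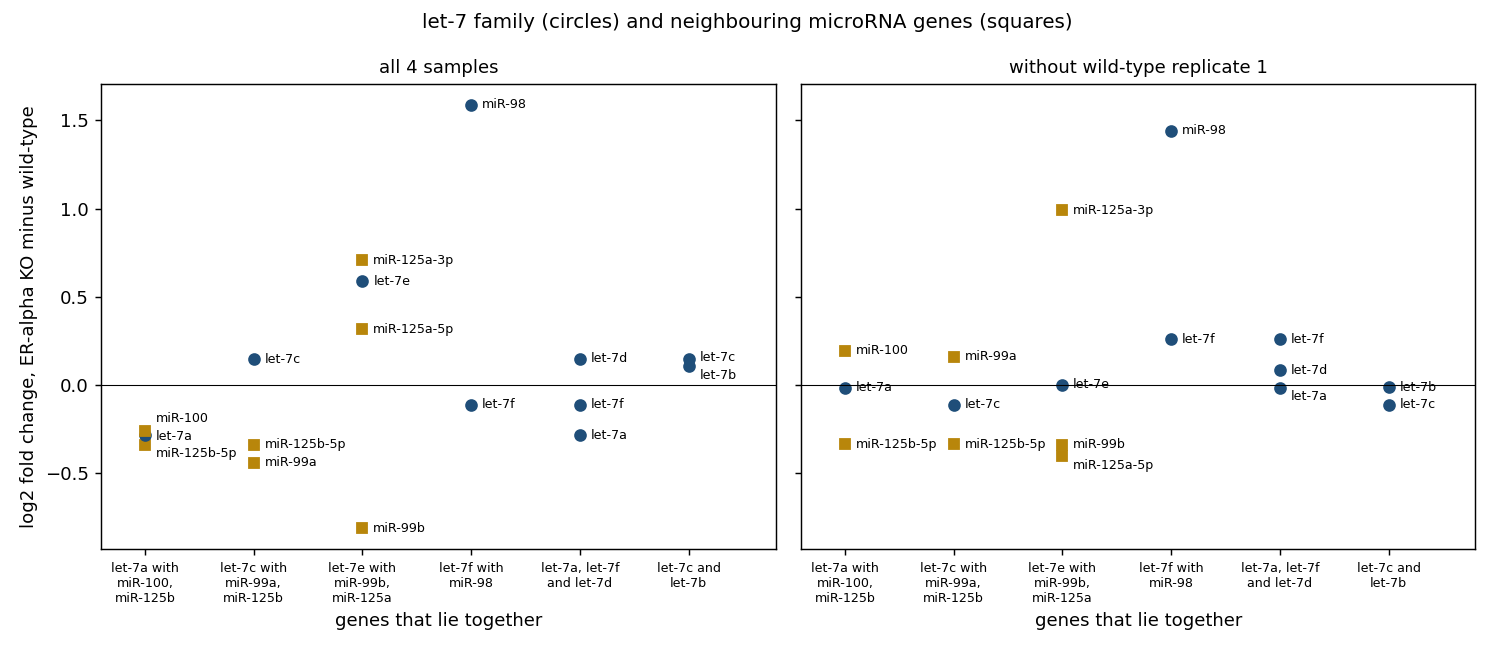
Log2 fold change of ER-alpha KO minus wild-type (vertical axis) for let-7 family members (circles) and neighbouring microRNAs (squares), grouped by genes that lie together, from all 4 samples (left) and without wild-type replicate 1 (right). Members with 2 genes appear in both of their clusters. No position was found for Mir99b and Mir125b-2. The points of miR-99b beside let-7e and of miR-125b-5p beside let-7c were thus placed without one. Beside miR-98 (1.59 and 1.44), its neighbour let-7f stood at -0.11 and 0.26.

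Scaled to the mean Ct of 5 small-RNA controls in place of the median microRNA, the family median was -4.64 and -3.06 in wild-type against -3.57 and -3.26 in ER-alpha KO samples. Both ER-alpha KO samples thus lay between the wild-type samples. On this scale 8 of 9 members had a fold change above 0 with a median of 0.43, and without wild-type replicate 1 it was 1 of 9, miR-98 at 1.00, with a median of -0.36. All 8 let-7 assays were then below 0, from -0.55 (let-7c) to -0.03 (let-7g). The controls themselves ranged over 0.42 cycles (MammU6) to 2.18 cycles (U87) between samples, and the family members over 1.13 cycles (let-7f) to 3.78 cycles (miR-98). The Ct of U87 was 26.3 and 27.8 in wild-type replicates 1 and 2, against 26.1 and 28.3 in ER-alpha KO replicates 1 and 2. This control thus read earlier in both samples numbered 1, and its part in the control scale was not tested.

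Outside the family and its cluster neighbours, the 3 tested microRNAs whose profile over the 4 samples was nearest to the family median profile were mmu-miR-200c, an epithelial microRNA, mmu-miR-27a and mmu-miR-26b. The measure is the root mean square distance after taking off each profile's own mean, and it was 0.06 for miR-200c, 0.07 for miR-27a and 0.07 for miR-26b. Within the family it was 0.02 for let-7d, whose own values help to set that profile. It was 0.43 for let-7e, the highest of the 8 let-7 assays, and 0.88 for miR-98. In nearness among the 229 tested, let-7b ranked 10, let-7c 14 and let-7i 28. Much further off were let-7g at 102, let-7f at 110, let-7a at 112, let-7e at 140 and miR-98 at 215. The profile thus did not set the family apart. Over only 4 samples, and with profiles this flat, the nearness is a description of these samples.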

How the data were processed

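Total RNA of the 4 whole-embryo samples was extracted with TRIzol, and TaqMan PCR ran for 40 cycles on a 7900HT system, per the labels' protocols. The authors deposited the Ct of each well, per the file headers: 1 well per assay, and 4 for U6, of which the mean was used. Threshold, baseline and any normalization are not given in the sources used here. Undetermined wells, and those of wild-type replicate 1 above cycle 40, were treated as not amplified. PCR gives no read depth, and 2 samples a group limit the precision.

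Levels were minus the Ct centred on the median of the 229 microRNAs at a Ct of 35 or lower in all 4 samples. Genotypes were tested two-sided with the lmFit and eBayes functions of limma 3.58.1 (R 4.3.3), with genotype alone in the design. The p-values were adjusted by Benjamini-Hochberg over all 229. The procedure was tested on simulated data with equal variances and effects larger than that of any member, so effects of the size seen here were not covered. A single variance was shared by all assays, since the prior degrees of freedom were infinite. The ratio of miR-98 to the other members was compared by an exact permutation test. Alternatives covered the scaling, the detection limit, the constant of wild-type replicate 1, each sample left out (with the same 229 microRNAs kept), the replicate number as a block and the variance settings. Named microRNAs are the 9 members, products of the miR-99/100 and miR-125 genes that lie with let-7 genes, 5 small-RNA controls, and the 3 microRNAs with the nearest profile. The members and lists were chosen with earlier results of these data known. Sequences and gene positions are from RefSeq tables of GRCm38.p6, matched by name. Python 3.11.15, pandas 2.3.3 and matplotlib 3.10.9 were used for tables and plots.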

Additional observations from a re-analysis of the deposited data

How the results depend on the processing

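With 2 samples a group and 1 well per assay, changes under about 2.38-fold fell short even of the unadjusted limit in the main fit. A larger change was needed to pass the adjusted limit, since miR-98 at 3.01-fold did not pass it. The count of family members past the threshold was 0 under all alternatives run. The difference of ER-alpha KO minus wild-type in the level of miR-98 relative to the other 8 members was 1.44. Centring, the removed constant, the block and the variance settings cannot change this within-sample measure, so those alternatives do not test it. It was 1.79 with quantile normalization. With 1 sample left out it ran from 0.69 (without ER-alpha KO replicate 2) to 2.20 (without ER-alpha KO replicate 1). The order of members by mean Ct was the same without wild-type replicate 1. Removing its constant shifts all members equally and so cannot change the order. The smallest limma adjusted p of a member was 0.438, and over the alternatives it ran from 0.0642 (without wild-type replicate 2) to 1 (no normalization).

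The family median log2 fold change of 0.15 moved to 0.43 with scaling to the controls, 0.44 with no normalization, 0.034 with quantile normalization, -0.16 with centring on the average profile, -0.0105 with centring on the family median, -0.15 with detection at a Ct of 32 (8 members, since miR-98 was not tested there) and 0.57 with no filter. With 1 sample left out it ran from 0.047 to 0.29. Without wild-type replicate 1 and scaled to the controls it was -0.36, and with the microRNAs chosen again over the other 3 samples -0.25; both were added after seeing the data. Of all microRNAs, 0 passed the limma test (10 at an unadjusted p under 0.05), 0 to 13 when 1 sample was left out, where the lone sample is assumed to vary like the other group, and 1 with the replicate number as a replicate block (mmu-miR-324-3p). The deviations of same-numbered samples correlated (r = 0.369 across the tested assays), but there are only 2 pairs and the labels leave the meaning of the numbers unstated, so the samples were analysed unpaired; 0 members were called under the block, where miR-98 had a limma adjusted p of 0.0651.

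Signs that turned were as follows, and causes beyond the centring itself were not tested. With scaling to the controls let-7f was 0.17. With no normalization let-7a was 0.0051 and let-7f 0.18, and with no filter 0.14 and 0.31. With quantile normalization let-7d was -0.0605 and let-7i -0.37. Centred on the average profile, let-7b was -0.21, let-7c -0.17, let-7d -0.16 and let-7i -0.11. Centred on the family median, let-7b was -0.0546, let-7c -0.015 and let-7d -0.0105. With detection at a Ct of 32, let-7b was -0.19, let-7c -0.15, let-7d -0.15 and let-7i -0.0946. With 1 sample left out, signs turned without wild-type replicate 1 (let-7b, let-7c, let-7e and let-7f) or without ER-alpha KO replicate 1 (let-7c at -0.0018 and let-7i). The values ran from -0.0125 to 0.22 for let-7b, -0.11 to 0.40 for let-7c, -0.0007 to 1.18 for let-7e, -0.48 to 0.26 for let-7f and -0.0598 to 0.46 for let-7i. Without wild-type replicate 1 and scaled to the controls, let-7b was -0.45, let-7c -0.55, let-7d -0.36, let-7e -0.44, let-7g -0.0259 and let-7i -0.11. With the microRNAs chosen again over the other 3 samples, let-7b was -0.34, let-7c -0.44, let-7d -0.25, let-7e -0.33 and let-7i -0.0064.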
